A study of Mus musculus with 360 samples.

Results

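The 10 genes described here encode secreted Wnt ligands, and they were chosen by name from the 24015 genes of the single-cell tables: Wnt2, Wnt2b, Wnt4, Wnt5a, Wnt5b, Wnt6, Wnt9a, Wnt10a, Wnt10b and Wnt11. For each ligand the reads, the share of cells with a read and the cells that held most of its reads were taken per tissue and per plate. The cells were CD51+;CD200+ skeletal stem/progenitor cells, sorted singly by flow cytometry from wild-type CD-1 mice at postnatal day 3 (pN3). They came from 3 cranial sutures, the fibrous joints of the skull vault, and from the tibial growth plate (GP), the cartilage in which a long bone elongates. The sutures were the posterior frontal (PF), which closes early in life, and the sagittal (SAG) and coronal (COR), which remain patent. All 4 groups were wild type and untreated, and all were sorted with the same gate, which also left out cells with the blood and vessel antigens CD45, Ter119 and Tie2. The cells came from many mice and no animal was named for any of them, so each tissue counted as 1 sample, its 2 plates were the only spread, and no difference between tissues has a p-value.

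Wnt ligands are lipid-modified glycoproteins that act over short distances on cells carrying Frizzled receptors. The modification needs the acyltransferase Porcn, and release from the cell needs the carrier Wls. Canonical Wnt (cWnt) signaling stabilizes beta-catenin through Frizzled and Lrp5 or Lrp6, and it keeps progenitor cells of bone undifferentiated or steers them toward osteoblasts, depending on the stage. Other ligands act mostly without beta-catenin, through Ror and Ryk receptors, and direct cell polarity and movement in growing bones.

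Of 360 cells, 325 passed a filter of at least 500 genes with a read and 10000 reads, with 87 in PF (34 on plate 1 and 53 on plate 2), 86 in SAG (30 and 56), 74 in COR (16 and 58) and 78 in GP (20 and 58). Levels are given in CPM, reads per 1000000 reads of the plate or tissue with the ribosomal RNA gene Rn45s left out, and plate totals without Rn45s ran from 3237921 to 28799387 reads. SAG plate 2 stood apart from the other plates. Rn45s took 86.8% of its reads, against 20.2% to 31% on the other plates, and its cells had a median of 875 genes with a read, against 2111.5 to 3867. The results below that rest on it are also given by plate. One SAG plate 1 cell had a description that named a PF plate, and no call made below was lost or gained when it was left out. At least 1 of 7 osteoblast markers was read in 77 of 78 GP, 74 of 74 COR, 75 of 86 SAG and 85 of 87 PF cells, and at least 1 of 7 chondrocyte markers in 71, 68, 83 and 79 cells. In PF and COR most of the cells with a chondrocyte marker had Col11a1. Sox9, Acan and Col2a1 were each read in fewer cells there, and Matn1 was at 0. Endothelial markers summed to at most 16.4 CPM in a tissue and were at 0 in GP, and blood cell markers to at most 15.7 CPM. Of 4 osteoclast markers Ocstamp was at 0, and the others summed to 563 to 959 CPM in 3 tissues and to 7759 and 1997 CPM on the SAG plates.

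A Wnt ligand was read in a larger share of the cells of COR and GP than of those of PF and SAG. At least 1 of the 10 ligands had a read in 45 GP cells (57.7%, exact binomial 95% interval 46 to 68.8%), 39 COR cells (52.7%, 40.7 to 64.4%), 30 PF cells (34.5%, 24.6 to 45.4%) and 17 SAG cells (19.8%, 12 to 29.8%). By plate they were 55% and 58.6% in GP, 56.3% and 51.7% in COR, 26.5% and 39.6% in PF, and 23.3% and 17.9% in SAG, so that both plates of COR and of GP lay above all 4 plates of PF and SAG. Pooled over tissues, cells with a ligand had more reads, with a median of 416816 reads other than Rn45s against 209630 in the 194 cells with none. Within tissues the medians were 444300 against 220134 in GP, 474694 against 226015 in PF and 477586 against 433647 in COR. In SAG the order was reversed, at 172640 against 191300. Cells with fewer than 100000 reads other than Rn45s could not be thinned to that depth and were left out, 11 in GP, 3 in COR, 17 in PF and 6 in SAG. Among the other cells, thinned to 100000 reads each, the shares were 52.2% in GP, 49.3% in COR, 37.1% in PF and 16.3% in SAG. The order was the same, but the sets of cells were not. With at least 10 ligand reads required of a cell, they were 43.6% in GP, 43.2% in COR, 32.2% in PF and 15.1% in SAG. At that cut the plates no longer separated, with COR plate 1 at 37.5% and PF plate 2 at 39.6%. The summed level of the 10 ligands was 131 and 112 CPM on the GP plates, 71.2 and 103 CPM in PF, 58.7 and 86.9 CPM in COR and 17.5 and 140 CPM in SAG. SAG plate 1 was thus the lowest of the 8 plates and SAG plate 2 the highest. In SAG, 3 cells held at least 50% of these reads, against 7 in PF, 8 in COR and 7 in GP.

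**Figure D1:**
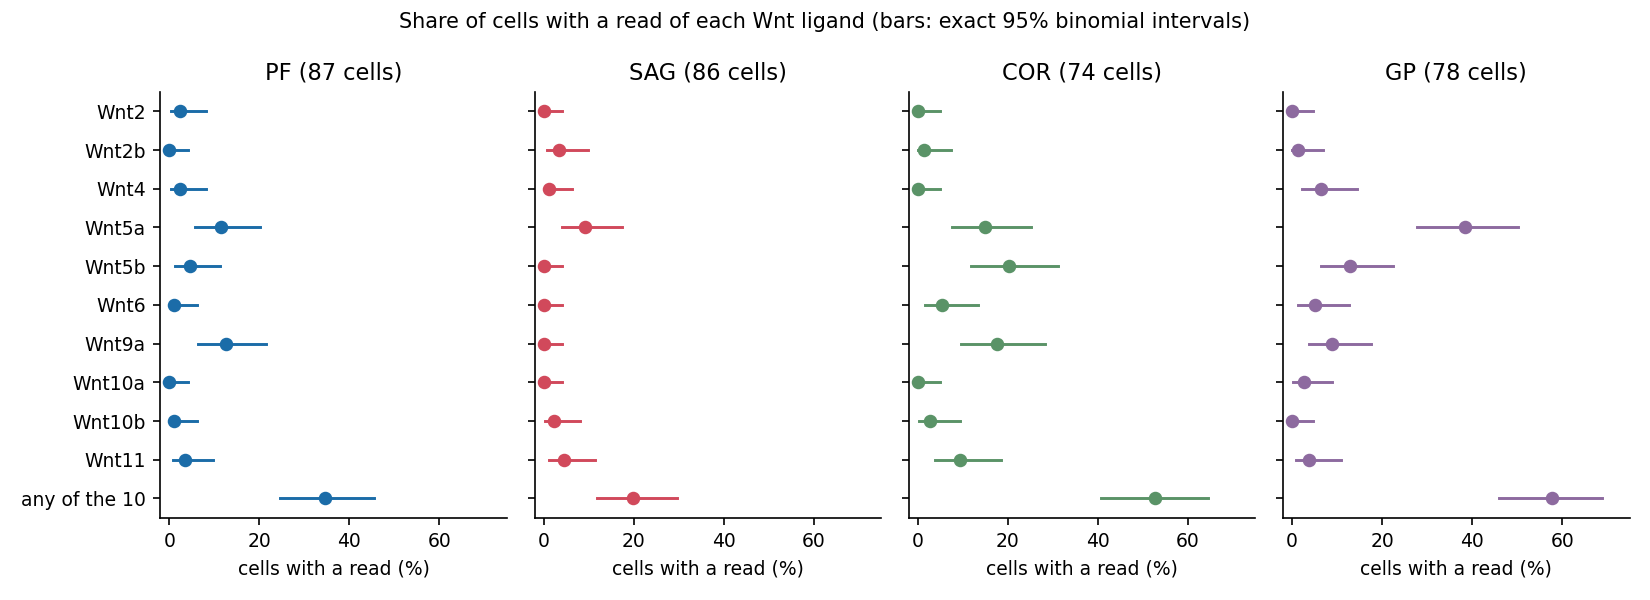
Share of passing cells with at least 1 read of each ligand (x axis, percent) in each of the 4 tissues, with exact 95% binomial intervals as bars that cover counting error only. Wnt5a in GP (38.5%) is the highest share of a single ligand, and Wnt5b, Wnt6 and Wnt9a sit at 0 in SAG.

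The make-up of these reads differed between tissues and between plates. Wnt5a supplied 69.6% and 47.9% of the ligand reads on the GP plates, 20.2% and 31.5% in PF, 40% and 14.8% in COR and 30.8% and 69.3% in SAG. The order of the tissues by this share therefore depends on the plate. Summed over plates, Wnt5b supplied 21.7% in PF, 37.2% in COR and 27.3% in GP, and Wnt9a 25.1% in PF, 22.2% in COR and 4.51% in GP. In SAG, where neither of these had a read, Wnt10b supplied 16.7% and 20.7% and Wnt11 34.2% and 3.80% on plates 1 and 2. Full-length libraries give a longer transcript more reads, and the shares above are not corrected for length. Wnt5a has 7822 bases of exon and Wnt5b 2625. Ligands were therefore ranked on each plate by CPM per kilobase of exon. On that scale Wnt5b led on both COR plates (11.1 and 12), on PF plate 1 (11.1) and on GP plate 2 (14.5). Wnt9a was ahead of it on PF plate 2 (7.63 against 7.20), and Wnt5a led on GP plate 1 (11.7). On SAG plate 1 the leading ligand was Wnt11 (1.64), and on SAG plate 2 Wnt10b (12.4) and Wnt5a (12.4) were level, the former from 1 cell with 300 reads.

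**Figure D2:**
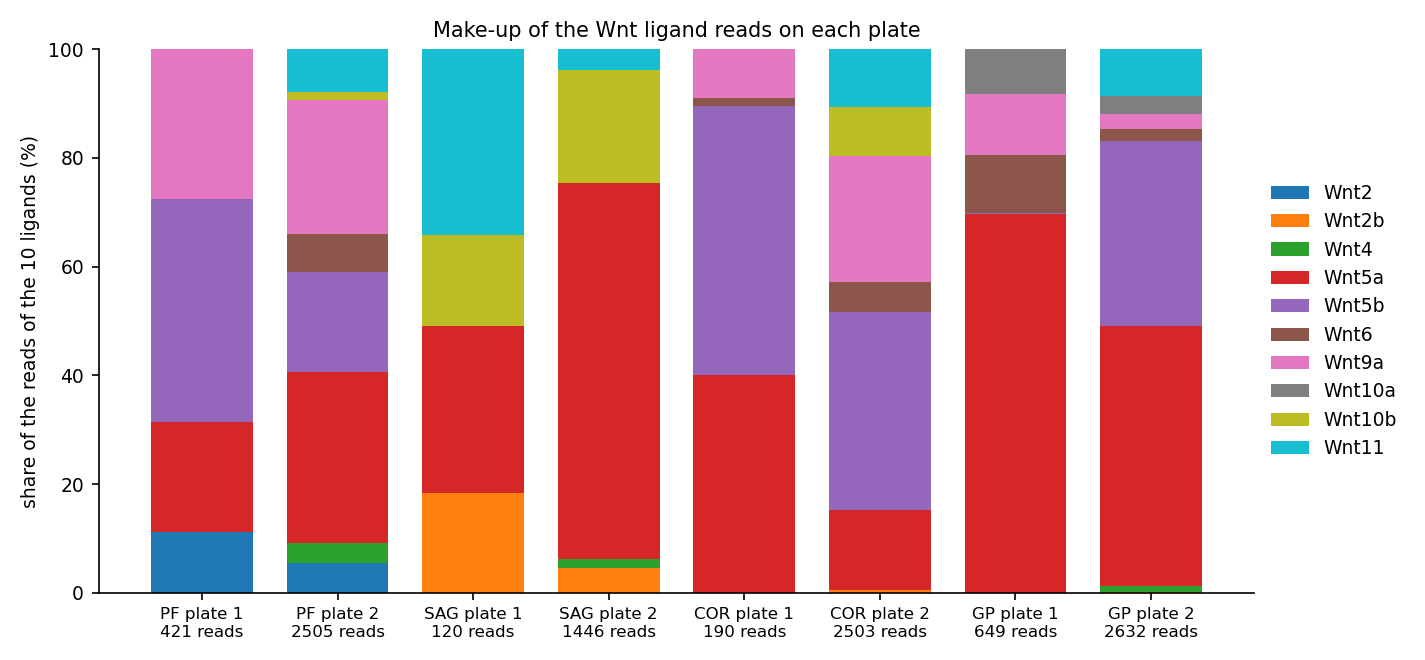
Reads of each ligand as a percentage of all reads of the 10 ligands (y axis) on each of the 8 plates (x axis, with the number of ligand reads). Wnt5a is present on every plate, while the Wnt5b, Wnt6 and Wnt9a blocks are absent from both SAG plates and the Wnt10a block appears only on the GP plates.

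Wnt5a, the main beta-catenin-independent ligand of limb and skeletal outgrowth, was the only member read on every plate and the one read in most cells, 59 of 325. The gene lies at chr14:29317936-29340633 on the plus strand of NCBIM37, the mm9 build. Its level was 91.5 and 53.5 CPM on GP plates 1 and 2, 23.5 and 12.9 CPM in COR, 14.4 and 32.3 CPM in PF and 5.38 and 96.9 CPM in SAG. Both GP plates were above all PF and COR plates, while the SAG plates lay at the bottom and the top of the range. Reads were in 30 of 78 GP cells (38.5%, 27.7 to 50.2%), 11 of 74 COR cells (14.9%, 7.66 to 25%), 10 of 87 PF cells (11.5%, 5.65 to 20.1%) and 8 of 86 SAG cells (9.30%, 4.10 to 17.5%). Thinning to 100000 reads, with cells below that depth left out, gave 35.8%, 12.7%, 11.4% and 8.75%. Summed over plates, SAG came to 60.4 CPM (Poisson 95% interval 56.7 to 64.1) from 8 cells and GP to 60.1 CPM (57.3 to 63) from 30 cells. These intervals cover the counting of reads only, and the SAG sum joins plates at 5.38 and 96.9 CPM. Of the 1039 SAG reads, 1002 were on plate 2, and the leading SAG cells held 424, 227 and 201. In GP, 24 cells held 10 or more reads, the leading cell held 205 of 1712 reads, and 6 cells were needed to reach 50% of the reads. The log2 ratio of COR to GP was -2.03, with plate ratios from -2.74 to -1.16, and that of PF to GP was -1.04, with plate ratios from -2.59 to -0.71.

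Wnt5b, the close paralog of Wnt5a that is produced by prehypertrophic chondrocytes in growing cartilage, was read in 29 cells, none of them in SAG. It lies at chr6:119382549-119494336 on the minus strand. Its level was 29.2 and 18.9 CPM on the PF plates, 29 and 31.6 CPM in COR, and 0.202 and 38 CPM in GP, where plate 1 held a single read. PF and COR plates overlapped, and the GP plates lay below and above all of them. The reads came from 4 PF cells (4.60%, 1.27 to 11.4%) with 206, 173, 159 and 96 reads, from 15 COR cells (20.3%, 11.8 to 31.2%) with 1 to 153 reads and from 10 GP cells (12.8%, 6.32 to 22.3%) with 1 to 239 reads. In PF every cell with Wnt5b had at least 96 reads, whereas the median was 57 reads in COR and 82.5 in GP. The summed level was 20.9 CPM in PF and 31.3 CPM in COR, a log2 ratio of -0.56 with plate ratios from -0.71 to 0.01.

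Wnt11, a ligand of convergent extension and, in bone, of osteoblast maturation, was the only other member with reads in all 4 tissues. It lies at chr7:105983622-106003705 on the plus strand. On plate 2 its level was 9.60 CPM in GP, 9.31 CPM in COR, 8.12 CPM in PF and 5.32 CPM in SAG, and on plate 1 it was 5.96 CPM in SAG and 0 in the other tissues. The plates of GP, COR and PF were further apart than the tissues, those of SAG were not, and no pair had 4 plate ratios of 1 sign. The reads sat in 3 PF, 4 SAG, 7 COR and 3 GP cells, and 1 cell held 217 of 226 reads in GP, 200 of 268 in COR, 138 of 198 in PF and 55 of 96 in SAG.

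Wnt9a, a ligand of joint-forming and perichondrial cells that acts through beta-catenin, was read in 31 cells, again with none in SAG. It lies at chr11:59120430-59147054 on the plus strand. Its level was 19.6 and 25.4 CPM on the PF plates, 5.25 and 20.2 CPM in COR and 14.6 and 3.23 CPM in GP. Both PF plates were above both GP plates, and the COR plates spanned the difference. The reads came from 11 PF cells (12.6%, 6.48 to 21.5%), 13 COR cells (17.6%, 9.70 to 28.2%) and 7 GP cells (8.97%, 3.68 to 17.6%), with medians of 51, 26 and 20 reads per cell. The log2 ratio of PF to GP was 2.03, with plate ratios from 0.40 to 2.64, and that of COR to GP was 1.67, with plate ratios from -1.32 to 2.32.

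Wnt10b, a cWnt ligand that favors osteoblast over fat cell formation, was read in 5 cells. It lies at chr15:98602184-98608581 on the minus strand. SAG had 2.91 CPM on plate 1, from 1 cell with 20 reads, and 29 CPM on plate 2, from 1 cell with 300 reads. COR had 0 on plate 1 and 7.71 CPM on plate 2, from cells with 141 and 81 reads, and PF had 0 and 1.39 CPM, from 1 cell with 34 reads. GP had no read. Both SAG plates lay above both PF plates, but each rested on 1 cell.

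Wnt10a, the paralog of Wnt10b known for its role in teeth and skin appendages, had reads in GP only. It lies at chr1:74838090-74850753 on the plus strand. The level was 10.9 CPM on GP plate 1 and 3.65 CPM on plate 2, and each plate value came from 1 cell, with 54 and 86 reads. No read was found in 87 PF, 86 SAG or 74 COR cells, which allows shares of up to 3.45%, 3.49% and 4.05%.

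Wnt6, the neighbor of Wnt10a with 6196 bases between the genes on chromosome 1 and a ligand of epithelial and neural crest tissue, was read in 9 cells. It lies at chr1:74818466-74831893 on the plus strand. The level was 0 and 7.18 CPM on the PF plates, 0.927 and 4.90 CPM in COR and 14.2 and 2.34 CPM in GP, and SAG had no read. The PF reads, 175, were all in 1 cell, the leading COR cell held 112 of 144 reads, and the GP cells held 54, 40, 30 and 1 reads. No cell had reads of both Wnt6 and Wnt10a, but these were read in only 9 and 2 cells.

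Wnt2, a cWnt ligand of lung and vessel development, had reads in PF only. It lies at chr6:17938940-17980585 on the minus strand. Its level was 7.95 CPM on plate 1, from 1 cell with 47 reads, and 5.70 CPM on plate 2, from 1 cell with 139 reads. No read was found in SAG, COR or GP, where 3 reads would have given 0.174, 0.0936 and 0.105 CPM.

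Wnt2b, its paralog, was mostly a SAG ligand in these reads. It lies at chr3:104747723-104764627 on the minus strand. SAG had 3.20 CPM on plate 1 and 6.38 CPM on plate 2, from cells with 61, 22 and 5 reads. COR plate 2 had 0.382 CPM from 1 cell with 11 reads, GP plate 2 had 0.255 CPM from 1 cell with 6 reads, and PF had none. Both SAG plates were above all other plates.

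Wnt4, which signals with or without beta-catenin and is made in joints and kidney, was read on plate 2 alone. It lies at chr4:136833404-136855641 on the plus strand. The level there was 3.73 CPM in PF, 2.22 CPM in SAG and 1.19 CPM in GP, and COR had no read on either plate. PF had cells with 83 and 8 reads and SAG had 1 cell with 23 reads. GP had the most cells, 5, but with only 13, 5, 4, 3 and 3 reads.

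**Figure D3:**
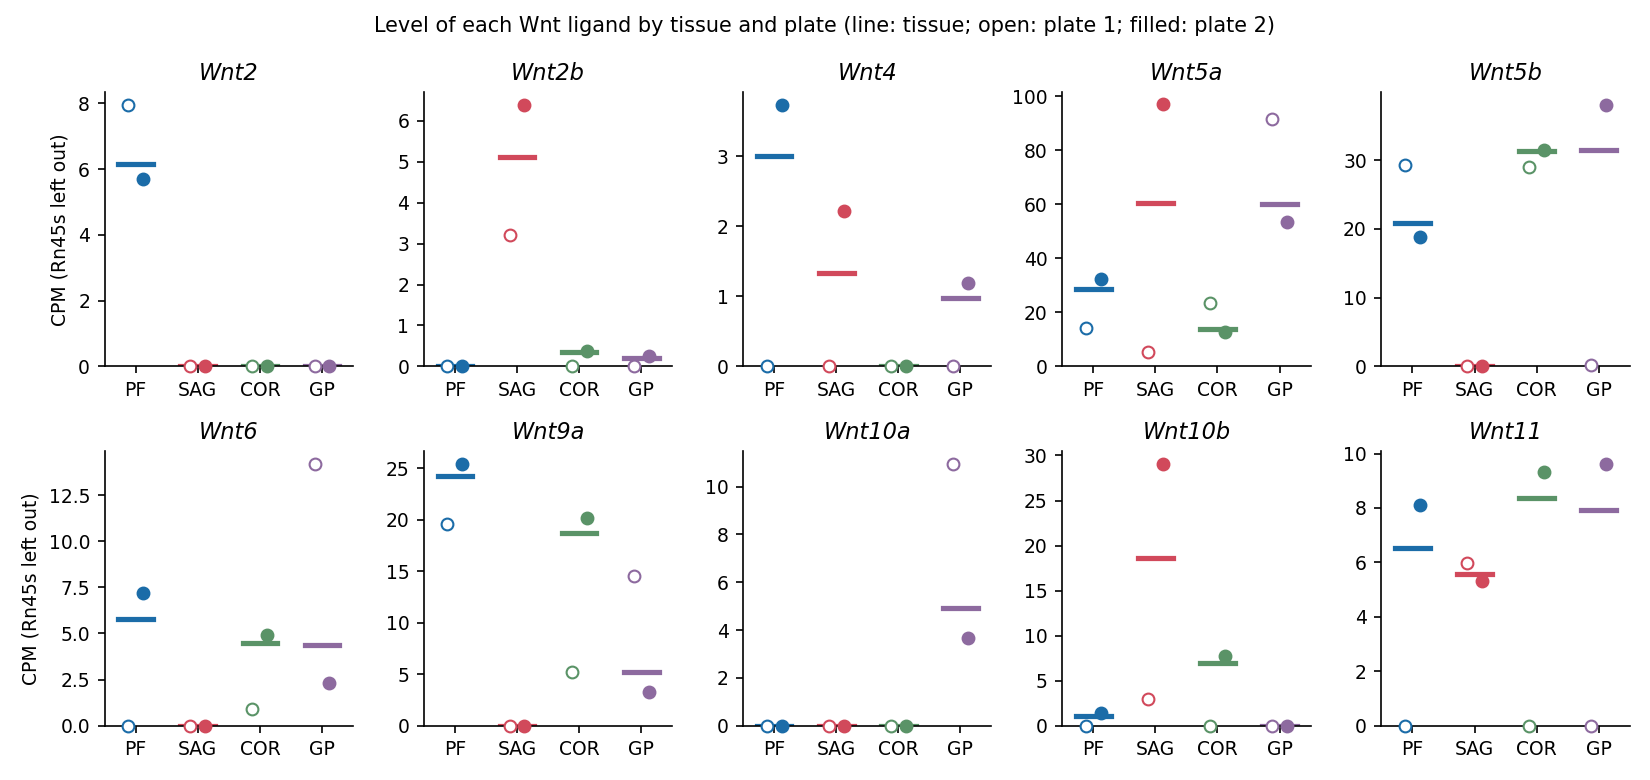
Level of each ligand (y axis, CPM with Rn45s left out, a separate linear scale from 0 for each ligand) in the 4 tissues (x axis), with the tissue value as a line, plate 1 as an open point and plate 2 as a filled point. For Wnt5a the GP points lie above the PF and COR points while the SAG points are far apart, at 5.38 and 96.9 CPM.

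For most members a single cell carried a large part of the reads. Across all tissues the cell with most reads held 10.4% of Wnt5a reads, 9.44% of Wnt5b reads and 16.4% of Wnt9a reads, but 27.5% of Wnt11 reads, 39.4% of Wnt6 reads, 52.1% of Wnt10b reads, 58.1% of Wnt2b reads, 58.5% of Wnt4 reads, 61.4% of Wnt10a reads and 74.7% of Wnt2 reads. Most cells with a read were not borderline. Of the 59 cells with Wnt5a, 46 had 10 or more reads and 9 had 1 to 3, and of the 29 with Wnt5b, 25 had 10 or more.

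**Figure D4:**
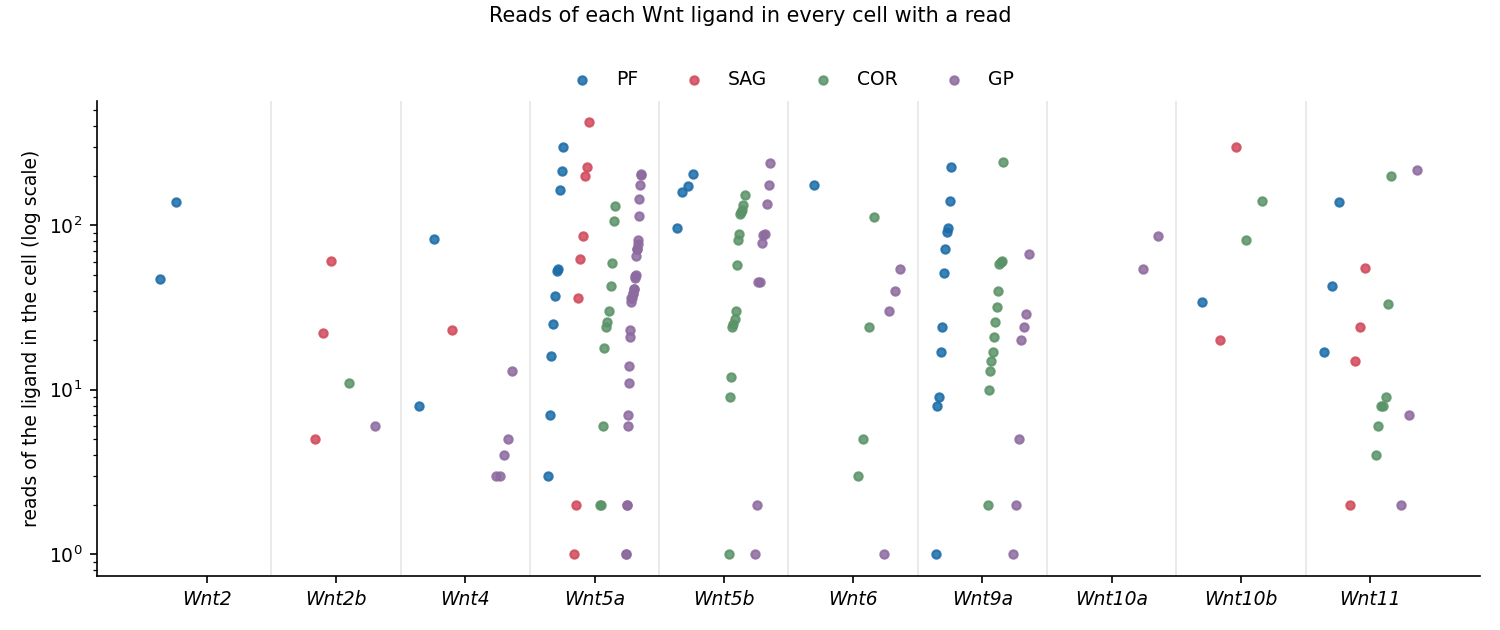
Reads of each ligand in every passing cell that had a read (y axis, log scale), with cells grouped by ligand (x axis) and colored by tissue. Wnt5a spans 1 to 424 reads and is the most populated column, whereas Wnt2 and Wnt10a consist of 2 cells each.

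The ligands Wnt5b, Wnt6 and Wnt9a were read in PF, COR and GP and had no read in the 86 SAG cells, 30 on plate 1 and 56 on plate 2. A count of 0 in 86 cells allows a share of up to 3.49%, and 3 reads would have been 0.174 CPM. The summed level of Wnt5b was 120 times these 0.174 CPM in PF, 180 times in COR and 181 times in GP. The GP value came from plate 2, since GP plate 1 held 1 read and the call was lost without plate 2. Wnt9a was at 139 times that limit in PF, 107 times in COR and 29.8 times in GP, and Wnt6 at 33.1, 25.8 and 25.2 times. The Wnt6 value of PF came from 1 cell of plate 2, with no read on plate 1, and Wnt6 was not called between PF and SAG. SAG plate 1, whose cells had a median of 2891.5 genes with a read, also had none of the 3 ligands. The small number of its cells sets the limit there, since 0 of 30 cells allows a share of up to 10%, or 11.6% by the exact interval. These folds cover the counting of reads only, not of cells, and each PF cell with Wnt5b held at least 96 reads. By cells, the exact intervals of Wnt5b began at 1.27% in PF, 11.8% in COR and 6.32% in GP. Those of Wnt9a began at 6.48%, 9.70% and 3.68%, and those of Wnt6 at 0.0291%, 1.49% and 1.41%. Wnt5b in PF and Wnt6 in each of these tissues thus reached below the 3.49% allowed in SAG, and Wnt9a in GP began near it. The part of the low gene detection of SAG plate 2 in the folds was not tested.

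The sequences before the starts of these 3 genes are given because the genes shared this absence. RefSeq promoters were matched by symbol for 8 of the 10 ligands, and the 250 bases before the start were placed on NCBIM37 by exact match. Capitals mark the GC box, spelled GGGCGG, and the TCF/LEF core, spelled CTTTGA, each on either strand, with overlapping matches counted. The TATA box, spelled TATAAA, and the RUNX core, spelled TGTGGT, were searched in the same way.
Wnt5b start 1, NCBIM37 chr6:119399405-119399654, minus strand: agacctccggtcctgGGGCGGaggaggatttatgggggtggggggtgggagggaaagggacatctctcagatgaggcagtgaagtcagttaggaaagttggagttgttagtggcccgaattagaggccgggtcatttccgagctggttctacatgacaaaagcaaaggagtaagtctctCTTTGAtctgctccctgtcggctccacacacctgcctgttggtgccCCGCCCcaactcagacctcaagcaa
Wnt5b start 3, NCBIM37 chr6:119494366-119494615, minus strand: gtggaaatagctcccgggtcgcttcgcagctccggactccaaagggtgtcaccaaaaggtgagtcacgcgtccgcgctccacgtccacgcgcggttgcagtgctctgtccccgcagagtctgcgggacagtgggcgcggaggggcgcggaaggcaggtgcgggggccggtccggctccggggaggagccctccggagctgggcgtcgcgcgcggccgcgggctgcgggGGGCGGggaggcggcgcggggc
Wnt6, NCBIM37 chr1:74818216-74818465, plus strand: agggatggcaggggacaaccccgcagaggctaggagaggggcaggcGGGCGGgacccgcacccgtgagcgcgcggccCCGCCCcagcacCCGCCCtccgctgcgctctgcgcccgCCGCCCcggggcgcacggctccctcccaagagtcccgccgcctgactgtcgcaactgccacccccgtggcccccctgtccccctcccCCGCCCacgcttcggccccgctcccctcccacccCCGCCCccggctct
Wnt9a, NCBIM37 chr11:59120182-59120431, plus strand: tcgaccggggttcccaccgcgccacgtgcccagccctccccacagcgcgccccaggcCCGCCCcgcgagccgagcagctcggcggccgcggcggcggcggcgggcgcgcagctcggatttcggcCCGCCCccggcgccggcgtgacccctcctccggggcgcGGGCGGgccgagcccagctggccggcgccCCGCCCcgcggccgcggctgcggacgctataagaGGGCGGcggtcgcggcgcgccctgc
The Wnt6 window held 6 GC boxes and the Wnt9a window 5, at 79.6% and 84.4% G or C. Wnt5b start 1 held 2 GC boxes and 1 TCF/LEF core at 55.6% G or C, start 3 held 1 GC box at 75.2%, and a further start held none of the motifs. No TATA box and no RUNX core was present in any of these windows. Of all 32851 promoter windows of this length, 32.7% held a GC box, 13.8% a TCF/LEF core, 12.4% a TATA box and 14% a RUNX core. A match is a description of letters and not of binding.

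To set the tissues side by side, a ligand was called between a pair where all 4 ratios of a plate of one to a plate of the other had 1 sign and the log2 ratio of (CPM + 1) was at least 1 in size. The same rule was applied to 13948 genes with at least 1 CPM in a tissue, among them all 10 ligands. Between PF and SAG, 5 of 10 ligands were called, against 25.7% of all genes (15.2% higher in PF and 10.5% higher in SAG), with Wnt2, Wnt5b and Wnt9a higher in PF and Wnt2b and Wnt10b higher in SAG. Between SAG and COR, 4 were called, against 27.7% of genes (17.1% higher in COR and 10.5% higher in SAG), with Wnt5b, Wnt6 and Wnt9a higher in COR and Wnt2b higher in SAG. Between SAG and GP, 6 were called, against 27.3% of genes (16.9% higher in GP and 10.5% higher in SAG), with Wnt5b, Wnt6, Wnt9a and Wnt10a higher in GP and Wnt2b and Wnt10b higher in SAG. The pairs with SAG share its plates, so these counts are not independent of each other.

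The other pairs did not include SAG. Between PF and COR, 1 ligand was called, Wnt2, higher in PF, against 11.7% of genes (5.14% higher in PF and 6.54% higher in COR), a share near the background. Between PF and GP, 4 were called, against 15.7% of genes (7.25% higher in PF and 8.44% higher in GP), with Wnt2 and Wnt9a higher in PF and Wnt5a and Wnt10a higher in GP. Between COR and GP, 2 were called, against 13.3% of genes (6.25% higher in COR and 7.01% higher in GP), Wnt5a and Wnt10a, both higher in GP. The median log2 ratio of the 10 ligands was 0.15 for PF to COR, where that of all genes was 0.00, and 0.01 for COR to GP, where it was 0.02. The Wnt2 calls rested on 2 cells of PF and the Wnt10a calls on 2 cells of GP, and all of them were lost when the cell with most reads was left out. Without SAG plate 2, the SAG level of Wnt10b was 2.91 CPM and its call against PF was lost, while the other 4 calls between PF and SAG were kept. Without that plate, Wnt5a in SAG was 5.38 CPM and was called lower than in PF, COR and GP, where no such call was made with both plates. Without SAG plate 1 it was 96.9 CPM and was called higher in SAG than in PF and COR, so the direction for Wnt5a turned with the plate.

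Few cells had reads of more than 1 ligand. Of the 325 cells, 194 had none, 99 had 1, 28 had 2 and 4 had 3. Cells with 2 or more made up 17.9% in GP, 17.6% in COR, 4.60% in PF and 1.16% in SAG. The most frequent pair was Wnt5a with Wnt5b, in 10 cells, 7 in GP and 3 in COR. These 10 were 16.9% of the cells with Wnt5a and 34.5% of those with Wnt5b, and in PF no cell had both, with 10 Wnt5a cells and 4 Wnt5b cells. The leading Wnt5a cell and the leading Wnt5b cell of GP were the same cell, with 205 and 239 reads. Wnt5a with Wnt9a followed, in 8 cells, then Wnt5b with Wnt9a, in 4 cells, and Wnt4 with Wnt5a, in 3 cells. Cells with more reads show more genes, so depth enters each of these counts. None of the counts, a count of 0 included, was set against the overlap that unrelated genes would give.

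All 7 fibroblast and all 4 tendon markers were read in a larger share of the GP cells with Wnt5a than of those without. Dcn and Lum, small proteoglycans of connective tissue, each had a read in 29 of 30 Wnt5a cells, against 33 and 32 of 48 others. Tnmd, a tendon membrane protein, was in 20 of 30 against 21 of 48, Scx, a tendon transcription factor, in 15 against 13, and Mkx and Thbs4 in 11 against 10 and 7 against 9. Of 7 chondrocyte markers, 5 had the larger share among the Wnt5a cells, such as Sox9, in 17 against 15, and 2 the smaller, Col2a1, in 8 against 13, and Matn1, in 1 against 2. Of 7 osteoblast markers, 5 had the larger share among the Wnt5a cells, such as Alpl, in 19 against 21, and 2 the smaller, Spp1, in 11 against 31, and Ibsp, in 4 against 14. None of 3 hypertrophic markers had the larger share. Smooth muscle and pericyte markers were split, with 4 of 6 larger, such as Cspg4, in 13 against 10. The other 2 were smaller, Mcam, in 1 against 9, and Myh11, in 1 against 2. Sox10, a Schwann cell factor, was in none of the Wnt5a cells and in 7 of the others. The 5 endothelial markers had no read in either set. The Wnt5a cells of GP had a median of 477790 reads other than Rn45s against 228410, and the part of that depth in these shares was not tested. In COR, 5 of 7 fibroblast markers had the larger share among Wnt5a cells and 2 the smaller, and all 4 tendon markers the larger. PF differed, with 3 of 7 fibroblast markers larger and 4 smaller, and 0 of 4 tendon markers larger and 3 smaller.

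**Figure D5:**
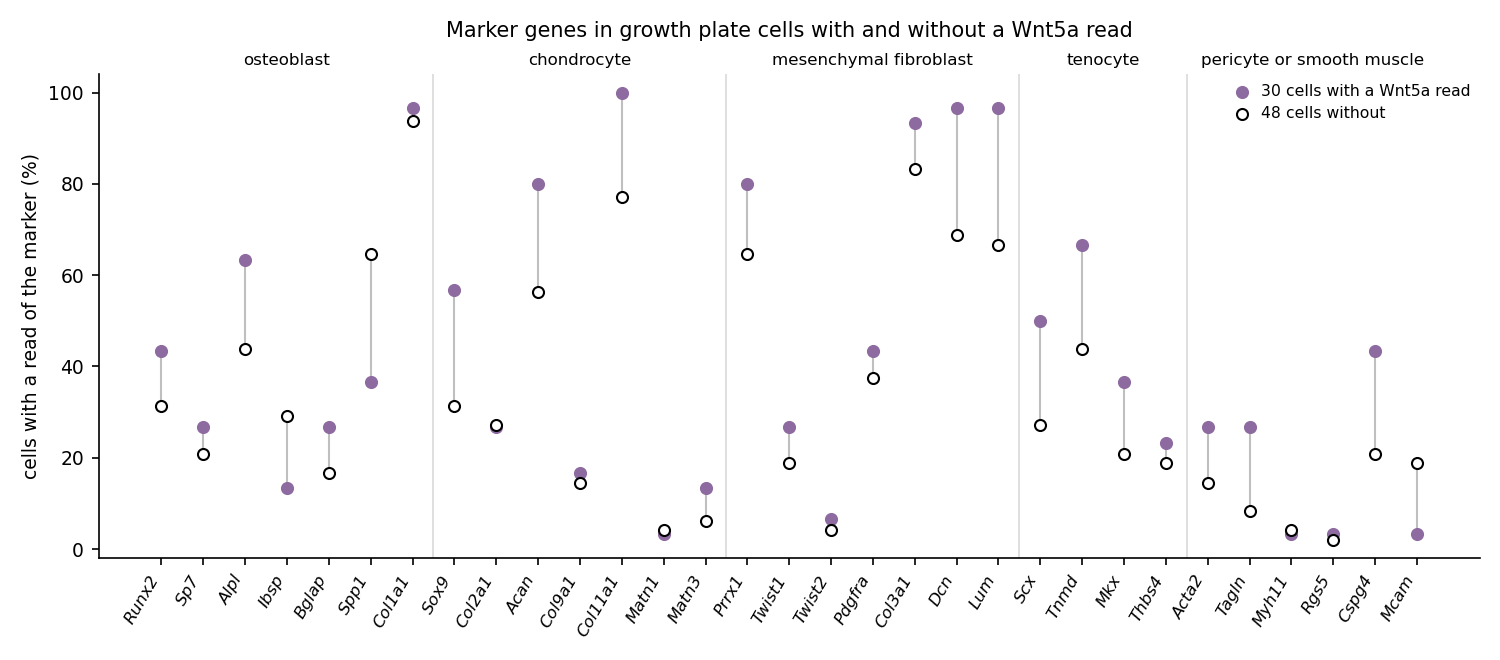
Share of GP cells with a read of each marker (y axis, percent) among the 30 cells with a Wnt5a read (filled) and the 48 without (open), by marker list. Dcn and Lum stand at 96.7% among Wnt5a cells and at 68.8% and 66.7% among the others, while Spp1 and Ibsp are the osteoblast markers with the open point above.

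The cell with most reads of a ligand was described by its markers. The marker with most reads was Col1a1, the main collagen of bone and fibrous tissue, in the leading cells of Wnt2, Wnt2b, Wnt9a and Wnt10b in every tissue that had them. The leading Wnt5b cell of PF had reads of all 6 smooth muscle and pericyte markers, led by Myh11 with 6666 reads, and of none of the 7 osteoblast markers. The leading Wnt4 cell of SAG, led by Col2a1 with 16302 reads, had all 7 chondrocyte markers. The leading Wnt11 cell of GP, led by Spp1 with 83392 reads, also had all 7 chondrocyte markers and 2 of the 3 hypertrophic ones. These cells were picked out after their values had been seen.

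Sox10, a transcription factor of neural crest and Schwann cells, was read in 4 of the 9 cells with Wnt6, a pairing picked out after the values had been seen. The PF cell with all 175 Wnt6 reads of that suture had 340 reads of Sox10, and the leading COR cell, with 112 Wnt6 reads, had 38. In GP, the cells with 40 reads and 1 read of Wnt6 had 71 and 66 reads of Sox10, while those with 54 and 30 reads had none. These 4 cells held 328 of the 444 Wnt6 reads. Other cells with Sox10 had no Wnt6 read: Sox10 was read in 7 GP cells, 2 of them with Wnt6, and in 2 COR cells, 1 of them with Wnt6. The leading Wnt10a cell of GP, with 86 reads, had 85 reads of Sox10, and the other Wnt10a cell, with 54 reads, had none.

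For the ligands read in at least 20 cells, the genes with the most similar pattern across the 325 cells were found by Pearson correlation of log2(CPM + 1) among 9309 genes. The cells share libraries, plates and depth, and the values are descriptions. Wnt5a was closest to 6330403K07Rik (r = 0.28), Pitx1, a hindlimb transcription factor (0.27), and Ostn, a secreted bone and muscle peptide (0.26). Pitx1 was read in 50% of GP cells and in no suture cell. Wnt5b was closest to Sytl2 (0.42), to Tnn, an extracellular matrix tenascin (0.37), and to Foxk2 (0.33). Of 47 cells with Sytl2, 17 had Wnt5b, and Sytl2 was read in 39.2% of COR cells and 8.97% of GP cells. Wnt9a was closest to Scara5, a ferritin receptor of stromal cells (0.38), Cpxm2 (0.32) and Tmem106b (0.32). Scara5, in 24 cells, shared 11 with Wnt9a and, like it, had no read in SAG.

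Of 9 further Wnt ligands, 6 had no read and Wnt1 was read in 1 PF cell. Wnt16 was read in 9 GP cells (11.5%, 5.41 to 20.8%), at 14 and 18 CPM on the plates, and in 1 COR cell with 4 reads, so that it was called higher in GP than in each suture. Wnt7b was read in 4 GP cells, all on plate 2, and in 1 COR cell with 95 reads. Wls was read in 79.7% of COR, 78.2% of GP, 77% of PF and 50% of SAG cells, at 369, 401 and 370 CPM in the first 3 and at 448 and 475 CPM on the SAG plates, and was called between no pair. Porcn was at 1.75 and 3.97 CPM on the SAG plates, 5.67 and 15.9 CPM in GP, 11.4 and 20.6 CPM in COR and 47.3 and 21.8 CPM in PF. It was called lower in SAG than in each other tissue, and was read in 3 of 86 SAG cells against 17 of 87 PF cells. Of the 7 genes of secretion and release, 4 were called between PF and SAG, against 25.7% of all genes, 3 between SAG and COR (27.7%), 4 between SAG and GP (27.3%), 1 between COR and GP (13.3%), and 0 between PF and COR (11.7%) and between PF and GP (15.7%).

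Of 16 receptors and co-receptors, 7 were called between PF and SAG, 6 of them higher in SAG, against 25.7% of all genes. The counts were 5 between SAG and COR (27.7% of all genes), 5 between SAG and GP (27.3%) and 3 between PF and GP (15.7%), all near the background, and 5 between PF and COR (11.7%) and 4 between COR and GP (13.3%). The receptor with most reads over both plates, without correction for length, was the cWnt co-receptor Lrp6 in PF and SAG, Ptk7, a planar polarity co-receptor, in COR and Fzd1 in GP. In SAG and PF this did not hold on plate 1. Fzd9 was at 612 CPM there in SAG, against 151 CPM for Lrp6, and Ptk7 was at 70.5 CPM in PF, against 41.9 CPM for Lrp6. Lrp6 was at 151 and 444 CPM on the SAG plates, above all other plates, and was called higher in SAG than in each other tissue. It was read in 45.3% of SAG cells against 46% of PF cells.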

How the data were processed

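Single-cell RNA-seq libraries of full-length type had been made in the SMART-seq2 manner from cells sorted into 96-well plates. Per the labels, the authors' deposited values are raw read counts per gene, 1 table for each of 2 plates of 4 tissues, and the submitters' processing notes name mm9, STAR 2.5.3a, HTSeq, Seurat 2.3.0 and R 3.4.4. The annotation, the version of HTSeq and the use of strand are not given in the sources used here. Wnt5a and Wnt11 overlap antisense genes in exons (Gm2670 and Gm8398 in GENCODE), and reads of the partners cannot be told apart if strand was not used. The libraries carry no molecular identifiers, so counts are of reads after PCR, and intervals and limits cover counting error only.

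The members and gene lists were chosen with earlier results of these data known. Named beside the 10 ligands are Wls and Porcn, other ligands read in at least 5% of the cells of a tissue, the receptor highest in each tissue, the 3 most similar genes of each ligand read in at least 20 cells, and marker lists by their counts. Cells were grouped by source name and columns were matched by title, with 0 columns left over. Cells needed 500 genes and 10000 reads, and no doublet caller was run on singly sorted cells. Reads were summed per plate and tissue and given as CPM without Rn45s, with exact Poisson intervals. Shares of cells carry exact Clopper-Pearson intervals at 95%. The limit for a count of 0 is 3 reads per tissue or 3 cells, which is below the upper end of the exact interval. Calls used a pseudocount of 1 CPM. The rule was run on simulated plate sums in which genes of at least 10 CPM were changed by known folds between PF and COR. Most of the ligands were below that level in both tissues. The simulation did not model reads held by few cells, so it does not bear on calls that rest on them. Alternatives were another filter on cells, Rn45s counted in the totals, TMM factors (edgeR 4.0.16), mean CPM per cell, thinning, a pseudocount of 0.1 CPM, no filter on low values, no minimum ratio, at least 10 reads for a cell to count, the leading cell of each ligand left out, each plate left out, and the cell with conflicting labels left out. Setting plate values of fewer than 3 reads to 0 was added after seeing the data. Well names recur between plates and mark a position only. Exon lengths and positions are from GENCODE on NCBIM37, and promoters from RefSeq on GRCm38.p6. Analyses used Python 3.11.15, pandas 2.3.3, SciPy 1.17.1 and R 4.3.3. Some neural markers are not reported here.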

Additional observations from a re-analysis of the deposited data

Results flagged for a closer look

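One cell of SAG plate 2 that the filter removed held 238 reads of Wnt5a, a signal in data outside the comparisons. The cell had 376 genes with a read, below the minimum of 500, and 166160 reads other than Rn45s. It was the only one of the 35 removed cells with a read of any of the 10 ligands. Its part in the Wnt5a level of SAG is given by the values without a filter on cells, at 71.2 CPM against 60.4 CPM.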

How the results depend on the processing

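With 1 sample per tissue no difference could be tested, and at these depths a ligand with no read may still be present below the limits given. No called value changed sign. Leaving out each plate in turn gave 1 to 3 ligands called between PF and COR, against 1 with all plates, 4 to 7 between SAG and COR, against 4, and 2 to 4 between COR and GP, against 2. The highest counts came without PF plate 1 or COR plate 1 (3), without SAG plate 1 (7), and without COR plate 1, GP plate 1 or GP plate 2 (4). With the leading cell of each ligand left out, 3 were called between PF and SAG, against 5. With 10 reads required of a cell, the GP share with any ligand was 43.6%, against 57.7%. All other counts of calls (105 of 114) and shares with any ligand (51 of 52) held within 1.5 times or within their interval. Of the 22 calls, 8 were kept under all 19 alternatives, those of Wnt2b and Wnt5b between PF and SAG, Wnt5b between SAG and COR, Wnt6 between SAG and GP, Wnt5a between COR and GP, and Wnt9a between SAG and each other tissue. Not every alternative could remove a call, so these tallies overstate how far the calls were tried. Dropping the filter on low values left the ligand calls unchanged, and dropping the minimum ratio can only add calls. Plates of a tissue outside a pair do not enter its calls. Leaving out a plate of the pair leaves fewer ratios that must share a sign, a looser rule. All calls of Wnt2, Wnt10a and Wnt10b were lost without the leading cell. The Wnt5a call between PF and GP was lost without PF plate 1, without GP plate 1, with Rn45s counted and with CPM averaged per cell, that of Wnt9a between PF and GP without GP plate 2, and that of Wnt6 between SAG and COR without COR plate 2. That of Wnt5b between SAG and GP was lost without GP plate 2 and with fewer than 3 reads on a plate set to 0, an alternative added after seeing the data. The causes were not tested. Counting Rn45s moved the median log2 ratio of all genes by 1.34 (PF to SAG), by -1.23 (SAG to GP) and by -1.31 (SAG to COR), and TMM factors moved that of SAG to GP by -0.15. The Wnt2b calls of SAG against COR and GP were lost with Rn45s counted. A stricter filter of 1500 genes and 50000 reads left no cell of SAG plate 2. No paired analysis was possible because plate numbers do not pair the tissues and no test was made.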
